A study of Homo sapiens with 2 samples.

Results

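RAB proteins are small GTPases that mark the membranes of the cell and direct the vesicles moving between them. A RAB loaded with GTP sits on its own compartment through a lipid anchor and recruits the motors, tethers and other effectors that carry a vesicle to its target, and hydrolysis of GTP releases it again. In secretory epithelium such as the breast, RABs of the endoplasmic reticulum, the Golgi and the secretory vesicles carry new proteins outward, endocytic RABs carry surface proteins inward to endosomes and lysosomes, and recycling RABs return them to the surface. The RAB genes were found by symbol alone, as RAB followed by a number with or without a letter from A to F, or as RABL (RAB-like) followed by a number. This gave 56 of the 18781 genes in the deposited table. They were assigned by hand, from general knowledge of their main place of traffic, to 24 secretory, 10 endocytic and 10 recycling RABs, and the 12 others include RABs of cilia, lipid droplets, lysosome-related organelles or ubiquitin ligases, RAB23 and RAB-like proteins.

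The RNA came from T47D, a luminal breast cancer cell line labelled as wild type and grown in DMEM with serum and antibiotics. Lysate was incubated with beads that carried either an antibody against IMP1, an RNA-binding protein known for transport and storage of mRNA, or normal IgG as the control, and the RNA that stayed on the beads was sequenced (RIP-seq). Each condition has 1 library, so no difference below has a replicate check and no test was run. Values are FPKM, fragments scaled by transcript length and library size, which allows levels to be compared between genes. Libraries were compared by the log2 ratio of FPKM + 0.1, anti-IMP1 over IgG, so that a positive ratio is a higher value in the anti-IMP1 precipitate, and a gene past 2-fold on this scale was called higher or lower. The number of reads is not given with these values, so the depth is unknown and no interval could be put on them. A gene listed at 0 has no measured fold, and its ratio depends on the 0.1 that was added.

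Of all genes, 1202 were listed at 0 with anti-IMP1 and 7270 with IgG, and the FPKM sums were 353885 and 1298363. To read single RABs against the rest of the transcriptome, 6909 genes that reached 1 FPKM in each library served as reference genes. The median reference gene had a log2 ratio of -0.78, and that of the full table was 0.40. No input library was used here, so more of an RNA on the beads and more of it in the lysate cannot be told apart. Most markers of the labelled cell type were present in both libraries: 10 of the 15 luminal breast markers had at least 10 FPKM in both. KRT8, a keratin of simple epithelium, had 162 FPKM with anti-IMP1 and 76.8 FPKM with IgG. ELF3 and TFF1 had 6.98 and 0.869 FPKM with anti-IMP1 and were listed at 0 with IgG. CLDN4 had 64.7 FPKM with anti-IMP1 and 0.393 FPKM with IgG. Of 15 mesenchymal markers 14 were in the table, and all 14 were lower with anti-IMP1, with a summed level of 2.92 against 250 FPKM. DCN, LUM and ZEB2 were listed at 0 with anti-IMP1 and had 37.5, 22.0 and 21.3 FPKM with IgG. Blood cell markers gave 5 of 10 genes, summing to 7.54 FPKM with anti-IMP1 and 327 FPKM with IgG, most of it CD74. Both libraries are labelled as T47D, and the origin of the mesenchymal and blood marker RNA in the IgG library was not tested. Whether any RAB mRNA of that library shares this origin was not tested either. In RNA pooled from many cells, fewer cells of a type and less RNA per cell cannot be told apart.

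As a family, RAB mRNAs were well represented in both precipitates. At least 1 FPKM was found for 43 of the 56 with anti-IMP1 and for 40 with IgG, and 34 reached it in both. Of all 18781 genes, 9822 reached it with anti-IMP1, 8708 with IgG and 6909 in both. The median RAB had 3.04 FPKM with anti-IMP1 and 4.45 FPKM with IgG, against medians of 1.13 and 0.618 FPKM over all genes. The highest RAB with anti-IMP1 was RAB11A at 69.1 FPKM, followed by RAB25 at 46.4, RAB1B at 40.8, RAB18 at 38.9 and RAB2A at 30.8 FPKM. With IgG the order was different, with RAB2A highest at 70.3 FPKM, followed by RAB7A at 59.9, RAB6A at 56.0, RAB13 at 52.0 and RAB1A at 42.3 FPKM. RAB2A was the only gene among the 5 highest of both libraries. Over the 56 genes the levels in the libraries had a Spearman rho of 0.72, given as a description of 2 libraries.

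**Figure D1:**
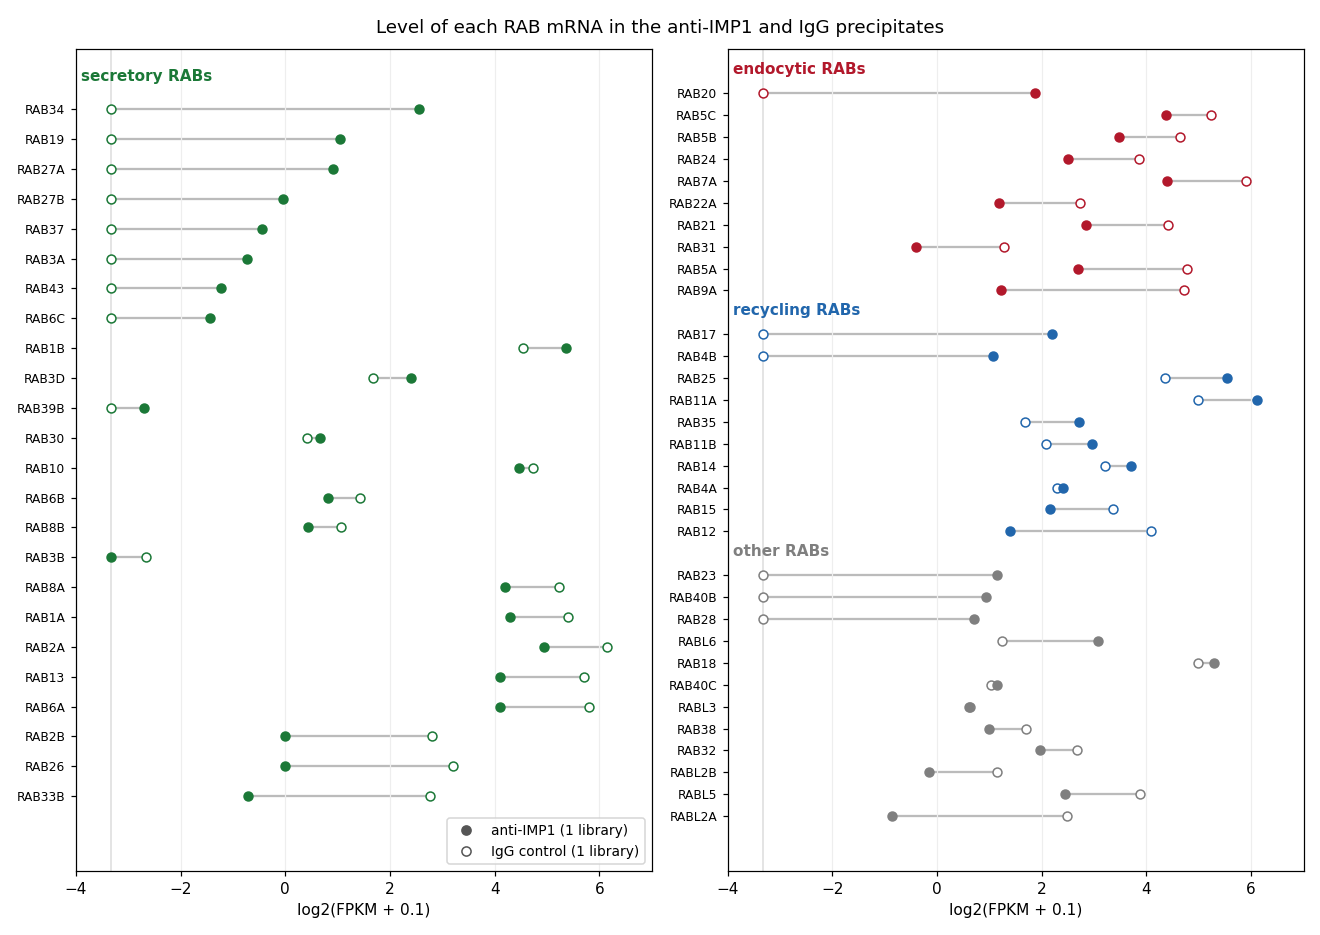
Level of each of the 56 RAB mRNAs as log2(FPKM + 0.1), by place of traffic and sorted by ratio, with filled points for the anti-IMP1 library and open points for the IgG library. The pale vertical line marks a value of 0, where 15 open points lie, and among endocytic RABs the filled point lies left of the open point for every gene but RAB20.

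The numbers of RAB genes past 2-fold were close to those of the table. Of the 34 RABs that reached 1 FPKM in each library, 15 (44.1%) were lower with anti-IMP1 against 44.0% of the 6909 such genes, and 4 (11.8%) were higher against 11.5%. Their median log2 ratio was -0.72, beside -0.78 for those genes. Of all 56 RABs, 21 (37.5%) were lower against 29.9% of all 18781 genes, and 18 (32.1%) were higher against 39.9%. IgG listed 14 of these 18 at 0, and RAB11A, RAB25, RAB35 and RABL6 were the 4 higher RABs with a value above 0 in both. With a pseudocount of 1 in place of 0.1, RAB35 and 5 RABs listed at 0 with IgG were no longer past 2-fold higher, which left 12, and RABL2B was no longer past 2-fold lower. All 21 lower RABs were above 0 in both libraries. These shares lie near those of the table, while the branches of the family differed among themselves.

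Endocytic RABs were lower with anti-IMP1 almost throughout. Of the 10, 8 were past 2-fold lower, RAB5C was within 2-fold and RAB20 was listed at 0 with IgG, and the median log2 ratio was -1.53. All 8 that reached 1 FPKM in each library lay below the median gene of the reference. Of the 10 recycling RABs 5 (50%) were higher, 2 (20%) were lower and 3 were within 2-fold. Among the 5 higher, RAB17 and RAB4B were listed at 0 with IgG. The recycling median was 0.95, and 6 of the 8 with at least 1 FPKM in both lay above the median gene. Secretory RABs were split, with 8 of 24 (33.3%) higher, 8 (33.3%) lower, 8 within 2-fold and a median of -0.018. Each class is to be read against all genes, of which 39.9% were higher and 29.9% lower, and the secretory shares lie near these. The 8 higher secretory RABs were all listed at 0 with IgG, and with a pseudocount of 1 only 3 secretory RABs were higher. Of the 11 secretory RABs with at least 1 FPKM in both none was higher and 5 (45.5%) were lower, against 44.0% of the reference genes. Of the 12 other RABs 4 were higher and 3 were lower, with a median of 0.051. As among recycling RABs, most of these with at least 1 FPKM in both, 6 of 7, lay above the median gene. These are counts of genes in 2 libraries, and no test of a difference between the classes was run. The classes were chosen with earlier results of these data known. With RABs of more than 1 compartment moved to their second place, the recycling median was -0.27.

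**Figure D2:**
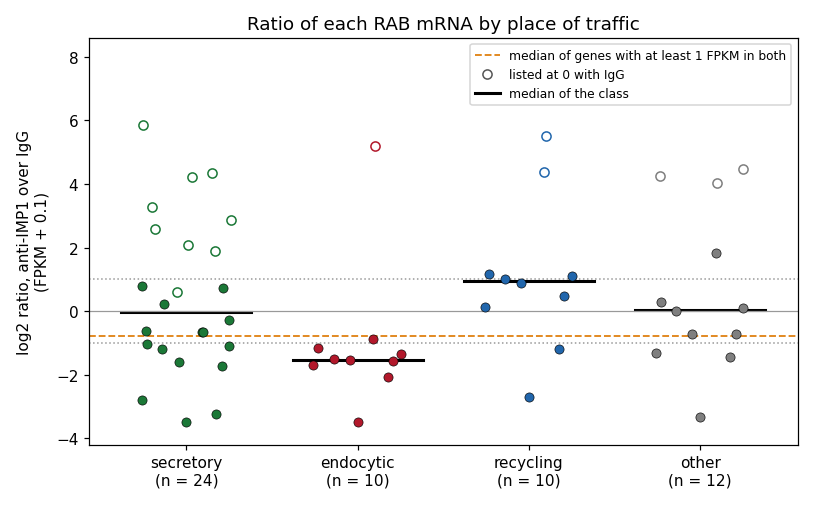
Log2 ratio of FPKM + 0.1, anti-IMP1 over IgG, for each RAB gene by place of traffic, with open points for genes listed at 0 with IgG, black bars for class medians, dotted lines at 2-fold and a dashed line at the median of the reference genes (-0.78). All endocytic points but RAB20 lie below the dashed line, and all recycling points but RAB12 and RAB15 lie above it.

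The shares of the summed RAB FPKM do not depend on how the libraries are scaled against each other. All RABs together summed to 499 FPKM with anti-IMP1 and 729 FPKM with IgG. Recycling RABs held 32.3% of this sum with anti-IMP1 and 13.8% with IgG. Endocytic RABs held 16.0% and 30.2%, and secretory RABs 37.9% and 46.6%. RAB11A carried much of the recycling share, and when the highest RAB of the class was left out in each library the recycling share was 21.4% with anti-IMP1 and 9.86% with IgG. The same step gave 12.4% and 23.9% for endocytic RABs. Many RABs serve more than 1 compartment, and when each such RAB was moved to its second place the recycling share was 39.7% and 28.4%, while the median log2 ratio of recycling RABs became -0.27 and that of endocytic RABs -0.79.

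**Figure D3:**
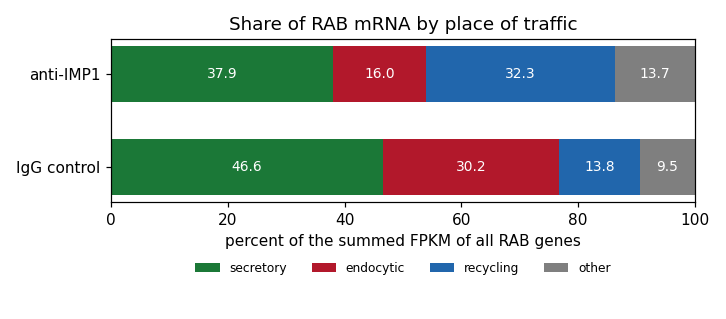
Percent of the summed FPKM of the 56 RAB genes held by each class, with 1 bar for each library. The recycling share is 32.3% in the anti-IMP1 library and 13.8% in the IgG library, and the endocytic share is 16.0% and 30.2%.

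The recycling RABs were led by the RAB11 subfamily, which sends cargo through the recycling endosome back to the surface. RAB11A had 69.1 FPKM with anti-IMP1 and 31.7 FPKM with IgG, giving a log2 ratio of 1.12, and 90.2% of the reference genes had a lower ratio. RAB25, the epithelial member of the subfamily also called RAB11C, had 46.4 and 20.5 FPKM, a log2 ratio of 1.18. RAB11B had 7.70 and 4.13 FPKM, which is 0.88 and within 2-fold. The 3 genes thus kept nearly their proportions, and RAB11A was 1.49 times RAB25 with anti-IMP1 and 1.55 times with IgG. RAB25 lies alone on chr1:156030951-156040295 (hg19), while the deposited locus of RAB11A, chr15:65903704-66184329, also holds SLC24A1 and DENND4A. DENND4A, an exchange factor that loads RABs with GTP, went the other way, with 1.04 and 17.1 FPKM. RAB11B shares its locus with RAB11B-AS1 and ANGPTL4.

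RAB35, which returns cargo from endosomes by a fast route, had 6.43 FPKM with anti-IMP1 and 3.12 FPKM with IgG, giving a log2 ratio of 1.02. RAB4A, also on the fast route, had similar values of 5.19 and 4.76 FPKM, a log2 ratio of 0.12. Its paralog RAB4B had 1.99 FPKM with anti-IMP1 and was listed at 0 with IgG, in a locus that also holds the readthrough gene RAB4B-EGLN2. RAB14, of traffic between Golgi and endosomes, had 12.9 and 9.18 FPKM. RAB17, an epithelial RAB of transcytosis, had 4.50 FPKM with anti-IMP1 and was listed at 0 with IgG. The exceptions were RAB12 and RAB15. RAB12, known for delivery of the transferrin receptor from recycling endosomes to lysosomes, has endocytic traffic as its second place. It had 2.54 and 17.0 FPKM, a log2 ratio of -2.69 that only 9.41% of the reference genes undercut. RAB15, of early and recycling endosomes, had 4.35 and 10.1 FPKM, or -1.20 on the log2 scale.

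RAB25 and RAB17 are RABs of epithelial cells, and most luminal markers moved in the same direction. RAB17 was listed at 0 with IgG and has no measured fold. RAB13, of tight junctions, went the other way with 17.1 FPKM with anti-IMP1 and 52.0 FPKM with IgG. Of the 15 luminal markers 9 (60%) were higher with anti-IMP1, against 39.9% of all genes, and none was lower. Their median log2 ratio was 1.31, beside 0.40 for all genes. Their summed level was 1395 FPKM with anti-IMP1 and 625 FPKM with IgG. KRT19, a luminal keratin, had 371 and 78.8 FPKM. EPCAM and CDH1, surface adhesion proteins of epithelium, were near equal, with 48.4 and 55.1 FPKM for EPCAM and 35.5 and 32.5 FPKM for CDH1. The part of this shift in the values of RAB25 and RAB17 was not tested.

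Among endocytic RABs, the RAB5 subfamily drives fusion of early endosomes, and its 3 members differed by unequal amounts. RAB5A had 6.34 FPKM with anti-IMP1 and 27.1 FPKM with IgG, giving a log2 ratio of -2.08. RAB5B had 11.0 and 24.8 FPKM, a log2 ratio of -1.16. RAB5C had 20.6 and 37.6 FPKM, a log2 ratio of -0.87 that lies just under the median gene. RAB5C was therefore 3.25 times RAB5A with anti-IMP1 and 1.39 times with IgG.

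RAB7A, which takes late endosomes to the lysosome and lies on chr3:128444965-128533639, had 20.8 FPKM with anti-IMP1 and 59.9 FPKM with IgG, giving a log2 ratio of -1.52. RAB9A, which returns mannose 6-phosphate receptors from late endosomes to the Golgi, differed most among RABs with at least 1 FPKM in both. It had 2.23 FPKM with anti-IMP1 and 26.0 FPKM with IgG, an 11.7-fold lower value and a log2 ratio of -3.49, and only 3.30% of the reference genes had a lower ratio. It lies alone on chrX:13707244-13728625. RAB21, of integrin endocytosis, had 7.04 and 21.1 FPKM, and RAB22A, of early endosomes, had 2.18 and 6.57 FPKM, with log2 ratios of -1.57 and -1.55. RAB24, linked to clearance of autophagosomes, had 5.55 and 14.3 FPKM. RAB31, a relative of RAB22A, was low in both, with 0.653 and 2.33 FPKM. RAB20, of phagosome maturation, was the exception, with 3.53 FPKM with anti-IMP1 and a listed 0 with IgG.

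Ratios between members within a library show the contrast without any scaling between libraries. RAB11A was 10.9 times RAB5A with anti-IMP1 and 1.17 times with IgG. RAB25 was 2.23 times RAB7A with anti-IMP1, and with IgG RAB7A was 2.93 times RAB25. RAB14 was 1.84 times RAB21 with anti-IMP1, and with IgG RAB21 was 2.30 times RAB14. These pairs were chosen after their values were seen.

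**Figure D4:**
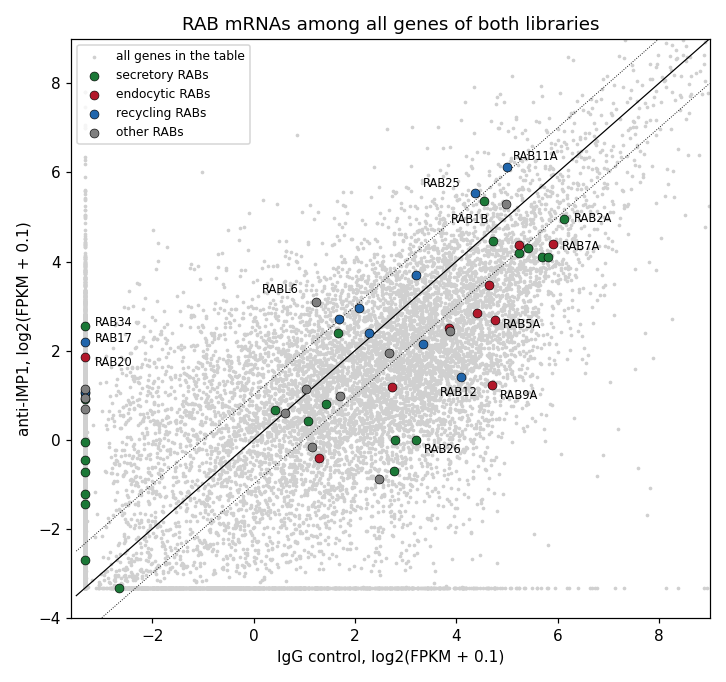
Level of each gene as log2(FPKM + 0.1) in the anti-IMP1 library (vertical) against the IgG library (horizontal), with all genes in grey and RABs coloured by place of traffic, and axes ending at 9. The solid line marks equal values and dotted lines 2-fold, and RAB11A, RAB25 and RABL6 lie above the upper dotted line while RAB9A, RAB5A and RAB12 lie below the lower one.

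Among the abundant secretory RABs, RAB2A, RAB6A, RAB1A and RAB1B work between the endoplasmic reticulum and the Golgi or at the Golgi. RAB2A, RAB6A and RAB1A were lower with anti-IMP1, and 39.1%, 26.0% and 41.2% of the reference genes had a lower ratio than they did. RAB2A, on vesicles between endoplasmic reticulum and Golgi, had 30.8 FPKM with anti-IMP1 and 70.3 FPKM with IgG, giving a log2 ratio of -1.19. RAB6A, of traffic through and out of the Golgi, had 17.0 and 56.0 FPKM, a log2 ratio of -1.71. RAB1A, needed for transport from endoplasmic reticulum to Golgi, had 19.5 and 42.3 FPKM, a log2 ratio of -1.11. RAB1B, which does the same work, had 40.8 and 23.3 FPKM, a log2 ratio of 0.81 and within 2-fold. RAB1A and RAB1B thus exchanged places, with RAB1B 2.09 times RAB1A in the anti-IMP1 library and RAB1A 1.82 times RAB1B in the IgG library, while their sum was 60.4 and 65.7 FPKM. Both genes share much of their coding sequence and each shares its deposited locus with other genes, so a different split of reads between them was not tested.

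Of the RABs that bring vesicles from the Golgi to the surface, RAB8A had 18.2 FPKM with anti-IMP1 and 37.5 FPKM with IgG, and RAB13, of tight junctions and surface delivery, had 17.1 and 52.0 FPKM, with log2 ratios of -1.04 and -1.60. RAB10, of delivery to the basolateral membrane, was near equal at 21.9 and 26.4 FPKM. The paralog RAB8B had 1.24 and 1.996 FPKM. RAB30 of the Golgi, with 1.48 and 1.24 FPKM, and RAB6B, the neuronal form of RAB6, with 1.65 and 2.59 FPKM, were low in both libraries and within 2-fold. RAB2B had 0.901 and 6.86 FPKM, RAB26 of secretory granules 0.890 and 9.14 FPKM, and RAB33B of the Golgi and autophagy 0.511 and 6.73 FPKM. These last 3 were under 1 FPKM with anti-IMP1, with log2 ratios from -3.48 to -2.80.

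**Figure D5:**
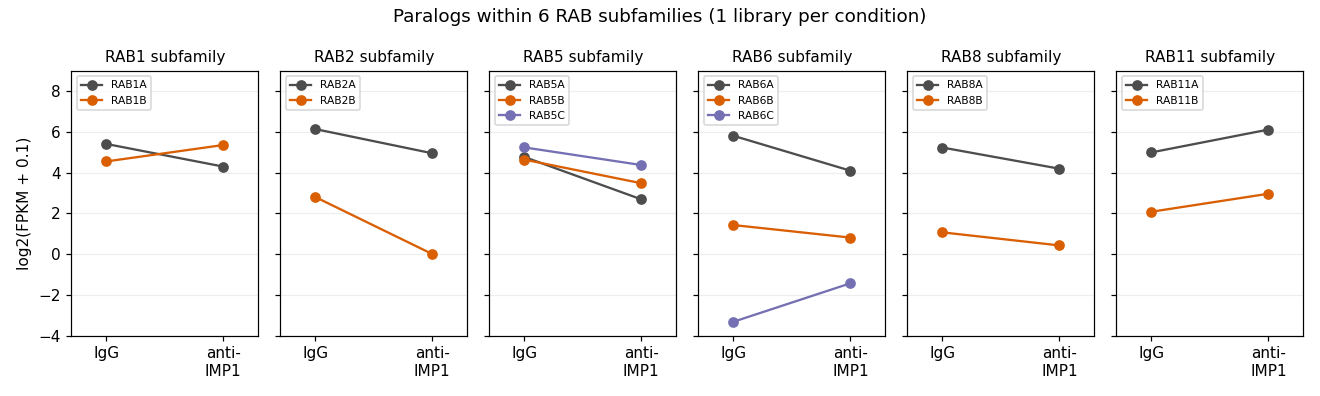
Level of the paralogs of 6 RAB subfamilies as log2(FPKM + 0.1) in the IgG library (left) and the anti-IMP1 library (right of each panel), with 1 value per library. Lines of RAB1A and RAB1B cross, those of RAB5 and RAB8 all fall toward anti-IMP1, and those of RAB11 both rise.

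The RABs of regulated secretion went in both directions, and all but RAB3D and RAB27A were under 1 FPKM with anti-IMP1. RAB26, described above, was lower with anti-IMP1 and had the highest value of them with IgG. RAB3D, of granules in exocrine cells, was the highest with anti-IMP1, with 5.20 FPKM with anti-IMP1 and 3.08 FPKM with IgG. RAB3A, of synaptic vesicles, had 0.501 FPKM and RAB3B was listed at 0 with anti-IMP1, while with IgG RAB3A was listed at 0 and RAB3B had 0.0577 FPKM. RAB27A and RAB27B, which dock secretory granules and exosomes, had 1.78 and 0.871 FPKM with anti-IMP1, and RAB37, also of granules, had 0.630 FPKM, and IgG listed all 3 at 0. Markers of neurons and endocrine cells gave 5 of 10 genes, from 0.0549 to 1.28 FPKM with anti-IMP1, while with IgG 4 were listed at 0 and TUBB3 had a value under 1e-05. Their part in the values of these RABs was not tested.

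IgG listed 15 RABs at 0, and 9 of these had at least 1 FPKM with anti-IMP1. The highest was RAB34, which positions lysosomes and acts at the Golgi, with 5.74 FPKM, ahead of RAB17 and RAB20. RAB23, of hedgehog signalling, had 2.11, RAB19 of the Golgi 1.95, RAB40B of a ubiquitin ligase 1.81 and RAB28 of cilia 1.52 FPKM. All 9 lay between 1 and 6 FPKM, a range with 24 RABs, so that 37.5% of them were listed at 0 with IgG against 27.9% of all genes in the same range. None of the 14 RABs at 10 FPKM or more with anti-IMP1 was listed at 0 with IgG, against 5.37% of all genes at that level. The other 6 RABs at 0 with IgG had 0.0531 to 0.871 FPKM with anti-IMP1, with RAB39B lowest and RAB6C and RAB43 at 0.270 and 0.328 FPKM. The anti-IMP1 library listed 1 RAB at 0, RAB3B.

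The remaining RABs went in both directions. RAB18, of lipid droplets and the endoplasmic reticulum, was among the highest in the anti-IMP1 library and near equal, with 38.9 and 31.6 FPKM, a log2 ratio of 0.30. RABL6, a large RAB-like protein, had 8.36 FPKM with anti-IMP1 and 2.26 FPKM with IgG, giving a log2 ratio of 1.84 that exceeded 96.1% of the reference genes. Its deposited locus holds 6 more genes. RABL5, a part of intraflagellar transport in cilia also named IFT22, had 5.35 and 14.6 FPKM, a log2 ratio of -1.43. The near-identical RABL2A and RABL2B, also of cilia, had 0.447 and 0.796 FPKM with anti-IMP1 and 5.46 and 2.11 FPKM with IgG, and the split between them is uncertain. RAB32 and RAB38, of lysosome-related organelles such as melanosomes, had 3.78 and 1.88 FPKM with anti-IMP1 and 6.30 and 3.14 FPKM with IgG. RAB40C, of a ubiquitin ligase, and RABL3 differed least, with 2.12 and 1.95 FPKM for RAB40C and 1.43 and 1.44 FPKM for RABL3. Outside the symbol rule, RAB7L1, the older name of RAB29, had 2.98 and 14.7 FPKM.

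Genes that act on RABs were also read from lists of known partners, with 171 genes in the table. Of these, 51 (29.8%) were higher and 73 (42.7%) were lower with anti-IMP1, against 39.9% and 29.9% of all genes. Of the 99 that reached 1 FPKM in each library 8 (8.08%) were higher and 53 (53.5%) were lower, against 11.5% and 44.0% of the reference genes, with a median log2 ratio of -1.27 beside the -0.78 of the reference genes. Among 8 proteins that attach the lipid anchor or take RABs off membranes, 3 (37.5%) were higher and 3 (37.5%) lower. Of the 5 with at least 1 FPKM in both, 2 were lower. RABGGTB, the catalytic subunit of the RAB geranylgeranyl transferase, had 7.71 FPKM with anti-IMP1 and 45.4 FPKM with IgG, and GDI2, which extracts inactive RABs, had 24.1 and 74.1 FPKM. RABAC1, a Golgi protein that binds prenylated RABs, had 23.6 and 3.03 FPKM, a log2 ratio of 2.92, and RABIF had 2.07 and 2.24 FPKM.

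The counts of the single lists rest on few genes and are also to be read against these 11.5% and 44.0%. Of 35 RAB exchange factors 10 (28.6%) were higher and 15 (42.9%) were lower. Among the 17 that reached 1 FPKM in each library 9 (52.9%) were lower and 1 was higher. DENND4A and SBF2 had the lowest ratios, and SBF2 had 1.44 and 9.48 FPKM. TRAPPC4 and TRAPPC5, subunits of the TRAPP complex that activates RAB1, had the highest, with 48.5 and 22.1 FPKM for TRAPPC4 and 19.0 and 9.48 FPKM for TRAPPC5. Of 32 GTPase-activating proteins, which switch RABs off, 12 (37.5%) were higher and 13 (40.6%) were lower. Among the 15 with at least 1 FPKM in both 10 (66.7%) were lower and 2 were higher. TBC1D5 had 1.96 and 21.7 FPKM and RABGAP1 5.51 and 45.1 FPKM, while TBC1D1 had 5.53 and 1.68 FPKM and TBC1D9B 11.8 and 4.53 FPKM.

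Of 44 effectors, which bind the active RAB, 16 (36.4%) were higher and 18 (40.9%) were lower. Among the 21 with at least 1 FPKM in both 12 (57.1%) were lower and 1 was higher. EEA1, the tether that RAB5 recruits to early endosomes, had 1.17 FPKM with anti-IMP1 and 20.8 FPKM with IgG, and RUFY1, another endosomal effector, had 1.28 and 30.6 FPKM. RABEP1, also an effector of RAB5, went the other way with 11.2 and 5.37 FPKM, and MYO5C, an epithelial myosin, had 4.83 and 2.69 FPKM. Of 35 SNAREs and tethers that complete fusion, 6 (17.1%) were higher and 19 (54.3%) were lower. Among the 27 with at least 1 FPKM in both 15 (55.6%) were lower and 2 were higher. STX4, a syntaxin of the plasma membrane, had 2.58 and 32.0 FPKM and EXOC5, of the exocyst, 3.97 and 44.8 FPKM. VAMP8, a SNARE of endosomes and secretory granules, had 19.7 and 4.37 FPKM, and YKT6 had 13.1 and 6.43 FPKM.

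Of 17 other small GTPases of traffic, 4 (23.5%) were higher with anti-IMP1 and 5 (29.4%) were lower. Among the 14 with at least 1 FPKM in both 5 (35.7%) were lower and 1 (7.14%) was higher, both below the shares of the reference genes. SAR1B, which starts COPII vesicles at the endoplasmic reticulum, had 19.9 and 5.54 FPKM. ARFRP1 of the Golgi had 1.48 and 11.9 FPKM. RAN, of nuclear transport, had 121 and 70.2 FPKM.

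For many lower RABs the direction depends on the scale of the libraries. Both scalings below raise the anti-IMP1 values, so they could not undo any of the 18 higher calls. If the anti-IMP1 values are raised so that the median gene of the reference has a ratio of 1, a log2 shift of 0.79, 23 RABs were higher and 7 lower, and the median log2 ratio was -0.75 for endocytic, 0.73 for secretory and 1.74 for recycling RABs. If both libraries are brought to the same FPKM sum, a log2 shift of 1.88, 14 of the 21 lower RABs and the endocytic median changed sign, the median to 0.32, beside 1.58 for secretory and 2.81 for recycling RABs. A common shift moves every class nearly alike, so rescaling cannot test the order of the classes. The endocytic median lay below the recycling median on each scale for that reason.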

How the data were processed

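RNA from 1 anti-IMP1 precipitate and 1 IgG precipitate of T47D cells was sequenced by a company. The deposited values are FPKM, 1 per gene and library, and a value of 1e-05 in them was read here as 0. The submitters' processing notes name hg19, and the aligner and the software behind the FPKM are not given in the sources used here. The table also holds the authors' own fold changes and p-values, and 3 further tables hold genes chosen by them, and none of these was used.

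The log2 ratio of (FPKM + 0.1), anti-IMP1 over IgG, was formed for each of 18781 genes, and a change past 2-fold was counted. No test was possible without replicates, and the depth is unknown. The FPKM of 346 genes with anti-IMP1 and 228 with IgG are above 0 but under 1e-05, none of them a RAB. Genes that reached 1 FPKM in each library served as reference. Deposited loci start at a 0-based position and were shifted by 1, and a locus covers overlapping genes together, so 31 of the 56 RABs share theirs with other genes.

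RABs were found by symbol, and 55 of 56 Ensembl identifiers carry the same symbol today. Another 11 RAB symbols of the class list were not analysed here. Where TUBB3 stood on 2 rows, the identifier with that current symbol was kept. Members, classes and lists were chosen with earlier results of these data known. Values are printed for RABs with at least 10 FPKM in a library, for the largest and smallest ratios, for RABs listed at 0 in a library and for subfamilies, and for the 2 highest and 2 lowest ratios of each partner list, except 1 gene that is not reported here. Alternatives were other pseudocounts, filters, a 4-fold threshold, rescalings, second classes and leaving out near-identical paralogs, and 2 alternatives for the class shares were chosen after seeing the data. The counting was tested on simulated data. Python 3.11.15, numpy 2.4.6, pandas 2.3.3 and matplotlib 3.10.9 were used.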

Additional observations from a re-analysis of the deposited data

How the results depend on the processing

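There was no replicate to leave out. No paired analysis was possible because each condition has a single library. The number of higher RABs, 18, became 4 among RABs above 0 in both libraries and 34 at the same FPKM sum, and was 12 to 23 under the other alternatives. The number of lower RABs, 21, became 7 at a 4-fold threshold, 7 after rescaling to the median gene and 5 at the same sum, and was 15 to 22 under the others.

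The median log2 ratio of all RABs, -0.14, was -0.043 with a pseudocount of 1, -0.44 with at least 0.5 FPKM in a library, -1.08 above 0 in both, 0.63 with the median gene as scale, 1.58 at the same sum, and 0.051 without near-identical paralogs. That of secretory RABs, -0.018, was -0.0032 and -0.010 with pseudocounts of 1 and 0.01, -0.44 and -1.08 under the filters, 0.73 and 1.58 after rescaling, 0.39 with second classes and 0.43 without paralogs. That of endocytic RABs, -1.53, was -1.24 and -1.55 with the pseudocounts, -1.55 above 0 in both, -0.75 and 0.32 after rescaling and -0.79 with second classes. That of recycling RABs, 0.95, was 0.81 and 0.97, 0.69 above 0 in both, 1.74 and 2.81 after rescaling, -0.27 with second classes and 0.76 without paralogs. Second classes gave shares of the RAB sum of 35.9%, 18.4% and 39.7% for secretory, endocytic and recycling RABs with anti-IMP1 and of 39.0%, 26.0% and 28.4% with IgG. Leaving out the highest RAB of the class gave 32.4%, 12.4% and 21.4% with anti-IMP1 and 40.9%, 23.9% and 9.86% with IgG.

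At the same sum, 14 lower RABs changed sign: RAB8A to 0.83, RAB1A to 0.76, RAB5B to 0.71, RAB2A to 0.68, RAB15 to 0.65, RAB24 to 0.50, RABL2B to 0.45, RABL5 to 0.43, RAB7A to 0.35, RAB21 to 0.29, RAB22A to 0.28, RAB13 to 0.27, RAB6A to 0.15 and RAB31 to 0.038. These changes follow from the scale, filter, threshold or class itself.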
